A study of Homo sapiens with 3 samples.

Results

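The 3′ major domain of 18S rRNA, which folds into the head of the small (40S) ribosomal subunit, was taken as positions 1200 to 1669 of the mature 18S sequence. It held 470 of the 7218 rRNA positions measured and 25.1% of the 1869 positions of 18S. The members were chosen by position alone. The study mapped where the methyltransferase METTL5 touches rRNA, using eCLIP in the human embryonic kidney line 293T. UV light joins proteins to the RNA they touch in living cells, RNase trims the RNA, and the pieces held by the pulled-down protein are read out by sequencing. The tested group was 2 eCLIP libraries, pulled down with anti-HA beads from 293T cells that stably express METTL5-HA. The control was 1 Input library from 293T cells labelled WT, and the cells of all 3 libraries had been crosslinked with UV. The eCLIP and Input libraries thus differ in cell line as well as in pulldown, and these cannot be told apart. No pulldown from untagged cells was among the libraries analysed here.

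The head carries the upper parts of the sites where transfer RNAs sit during translation, and its tilt and swivel relative to the rest of the 40S subunit accompany movement along the messenger RNA. Several of its bases are modified during ribosome assembly. METTL5, bound to its partner TRMT112, methylates an adenosine that lies outside this domain, closer to the 3′ end of 18S. TRMT112 is also the partner of BUD23, which methylates a guanosine inside the head. Reads on the head therefore lie away in sequence from the known target base of METTL5. Distance in the folded subunit was not examined.

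Each value was a read depth, the number of reads over 1 position. Summed depth was 17574237 and 6930845 in eCLIP replicates 1 and 2, against 42783485 in Input. About 3696 and 1271 reads lay on the head in the eCLIP replicates and about 43239 in Input, taking a read as 75 nt. Libraries were scaled to 5S rRNA, whose mean depth was 210.7 and 66.9 reads in the eCLIP libraries, against 532.6 in Input. The mean over all of 18S was 431.0 and 122.3 reads in eCLIP, against 6210 in Input. 5S is 121 nt long, so every read of 75 nt covers its centre. Its summed depth divided by 75 was 340 and 108 reads in the eCLIP libraries, equal to its highest depth of 340 and 108. In Input the same division gave 859.3 reads, against a highest depth of 860. The 5S counts have exact 95% Poisson intervals of 305 to 378 and 88.6 to 130 reads in the eCLIP libraries, and of 803 to 918 in Input. On the log2 scale the interval of eCLIP replicate 2, the widest, spans -0.29 to 0.27. Input depth stood at 4000 reads or more at 88.5% of head positions and at 7000 or more at 73.4%, and reached at most 7951. No position of the table reached 8000 in any library. If reads beyond that level went unrecorded, the 5S-scaled ratios to Input given here are upper bounds, and the range, steps, shares and correlations of Input would be altered too. Whether depth was limited was not tested. The eCLIP libraries lay far below it in the head, at no more than 1843 and 818 reads.

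The first comparison asked how much METTL5-HA eCLIP coverage the head held. Mean depth in the head was 589.8 and 202.8 reads per position in eCLIP replicates 1 and 2, against 6900 in Input. Relative to the mean 5S depth these values were 2.80 and 3.03 for eCLIP, against 12.95 for Input. On the 5S scale, eCLIP over Input came to a log2 ratio of -2.21 for replicate 1 and -2.10 for replicate 2 (mean -2.15 ± 0.081, SD, n = 2). Every one of the 470 positions had a log2 ratio below 0 in both replicates. The median over head positions was -2.49 in replicate 1 and -3.00 in replicate 2. With 2 libraries against 1, an exact permutation test cannot give a p below 0.333, so none is given, and eCLIP was tested against Input over windows instead.

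Recorded depth ranged more widely along the head in eCLIP than in Input, which stood on its plateau at most positions. The deepest position exceeded the shallowest 19.4-fold and 45.4-fold in eCLIP replicates 1 and 2, against 3.99-fold in Input. Both eCLIP libraries were deepest just before position 1314, with 1843 reads at 1313 in replicate 1 and 818 reads at 1312 in replicate 2. Both were shallowest at the 3′ edge, with 95 reads at 1667 in replicate 1 and 18 reads at 1668 in replicate 2. Input was shallowest elsewhere, with 1992 reads at 1238, and deepest at 1606. Across the 470 positions, which share reads with their neighbours, the 2 eCLIP libraries had Pearson's r = 0.965 on log2 depth and Spearman's rho = 0.954. The correlation with Input was r = 0.204 for replicate 1 and 0.359 for replicate 2.

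**Figure D1:**
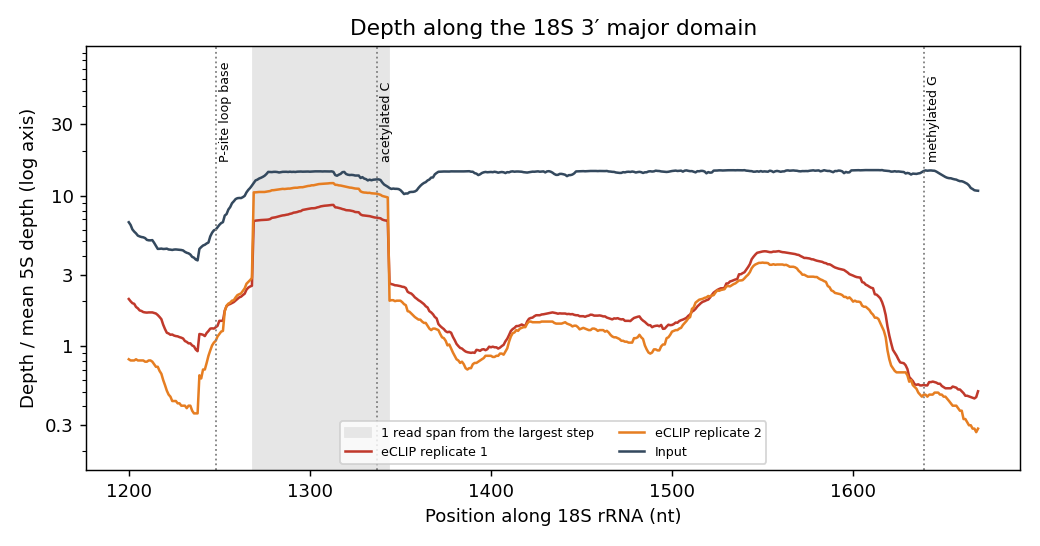
Read depth at each position of the 18S 3′ major domain, divided by the mean 5S depth of the same library (log axis), in the 2 eCLIP libraries and Input. The grey band is the span of 75 nt that starts at the largest step, and dotted lines mark 3 modified bases. Both eCLIP lines form a flat-topped block in the band, a rounded hill near 1550 and low ground near 1390 and after 1620, while Input varies 3.99-fold at most and has its low point at 1238.

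Windows of 50 nt were tested over all 4 rRNAs, 147 in all, and 9 of them lay wholly inside the head. With edgeR's quasi-likelihood test, the 5S total as scale and Benjamini-Hochberg adjustment over all windows at 0.05, 7 of the 9 head windows were lower in eCLIP. Of all windows, 34.7% were lower. edgeR called 0 head windows higher, and 2.72% of all windows. Without adjustment, 0 head windows had p under 0.05 in that direction, and DESeq2 also called 0 higher, against 29.3% of all windows. The median log2 fold change of the 9 head windows was -2.60, against -3.41 for the other 29 windows of 18S and -0.38 for all windows. DESeq2 called all 9 head windows lower, and 44.2% of all windows. All 29 other windows of 18S also had a log2 fold change below 0, and edgeR called 28 of them lower. Low ratios on this scale were thus common to 18S. Among these 29, windows 1151 to 1200 and 1651 to 1700 lie partly in the head. The edgeR test had 1 residual degree of freedom, its spread came from the 2 eCLIP libraries alone and was pooled over all windows, and a read counts up to 50 times in a window. With only the middle position of each window, 6 head windows were lower, with edgeR adjusted p from 0.0139 to 0.02635. The labels do not say whether these are separate cultures, so the spread behind each p-value may be technical.

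The lowest of the head windows was 1601 to 1650, which holds the guanosine methylated by BUD23. Its mean depth was 277.4 and 65.3 reads in eCLIP replicates 1 and 2, against 7774 in Input. Its edgeR log2 fold change was -3.67 ± 0.556 (SE, adjusted p = 6.71e-09). Window 1651 to 1700, which lies only partly in the head, was lower still, at -4.20 (edgeR adjusted p = 4.94e-09). The 3 windows that cover 1351 to 1500 were also low, and depth within them was not even. Cut into 25 nt, the log2 fold change was -2.88 at 1351 to 1375 and -3.99 at 1376 to 1400, and lay between -3.57 and -3.22 from 1401 to 1500. Over 50 nt the log2 fold changes were -3.37 at 1351 to 1400, -3.39 at 1401 to 1450 and -3.47 at 1451 to 1500. The largest edgeR adjusted p of these 3 was 1.18e-07. The 2 windows over the rounded hill were less reduced. Window 1551 to 1600 had 800.8 and 195.5 reads in eCLIP, against 7824 in Input, and a log2 fold change of -2.13 ± 0.485 (SE, edgeR adjusted p = 9.00e-05). Window 1501 to 1550 had 528.3 and 157.3 reads in eCLIP, against 7839 in Input, with a log2 fold change of -2.60 (edgeR adjusted p = 5.25e-06).

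The first window, 1201 to 1250, was the shallowest head window in Input and in eCLIP replicate 2, but not in eCLIP replicate 1. It had 291.5 and 44.7 reads in eCLIP, against 2589 in Input, and a log2 fold change of -2.24 ± 0.651 (SE, edgeR adjusted p = 0.00249). With only its middle position the window was not called (log2 fold change -2.40, edgeR adjusted p = 0.0931). The eCLIP libraries differed more here than in any other head window, with log2 ratios of -1.81 in replicate 1 and -2.86 in replicate 2. The 54 positions from 1200 to 1253 were the only ones of the head where Input had fewer than 4000 reads. The log2 ratio of mean depth over them was -2.32 ± 0.694 (SD, n = 2), against -2.15 ± 0.114 where Input had 4000 or more.

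The other 2 windows were not past edgeR's threshold. Window 1251 to 1300 had 1161 and 527.5 reads in eCLIP replicates 1 and 2, against 6611 in Input, with a log2 fold change of -0.89 ± 0.444 (SE, edgeR adjusted p = 0.106). Window 1301 to 1350 had 1510 and 666.5 reads in eCLIP, against 7100 in Input, with -0.64 ± 0.413 (SE, edgeR adjusted p = 0.196). DESeq2 called both lower, with adjusted p = 0.00501 and 0.0363. Of the 38 windows of 18S, window 1301 to 1350 was the deepest in both eCLIP libraries and 16th deepest in Input.

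**Figure D2:**
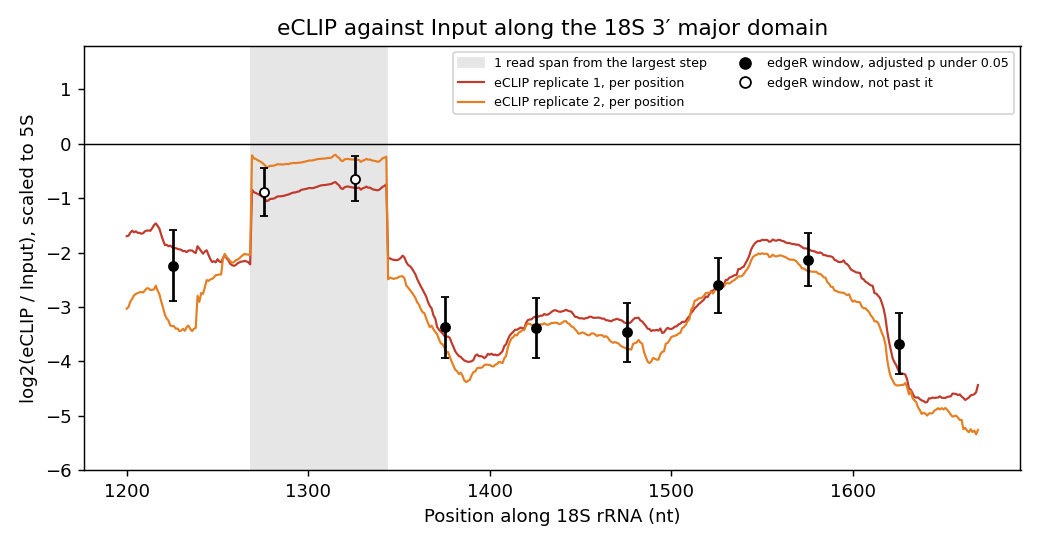
Log2 ratio of eCLIP to Input at each position of the 18S 3′ major domain, scaled to 5S, for both eCLIP replicates as lines. Circles give edgeR's log2 fold change of each 50-nt window with its SE, filled where the adjusted p is under 0.05. All positions lie below 0, and the 2 open circles fall in the grey band, the span of 75 nt at the largest step.

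The second comparison set the head against the rest of 18S, the 1399 positions outside it. The head took 34.4% and 41.7% of 18S depth in eCLIP replicates 1 and 2, against 27.9% in Input. Exact (Clopper-Pearson) 95% intervals on depth divided by 75 were 33.5% to 35.3%, 39.95% to 43.49% and 27.7% to 28.2%. They cover counting error only. As a log2 ratio to the Input share these were 0.30 and 0.58 (mean 0.44 ± 0.196, SD, n = 2). Head depth averaged 1.56 and 2.13 times that of the rest of 18S in eCLIP, against 1.15 times in Input.

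In eCLIP replicates 1 and 2, 44.0% and 58.9% of head depth lay in 1 stretch as long as a read, against 17.1% in Input. The stretch was chosen because it starts at the largest eCLIP rise of the head. Leaving it out therefore lowers the eCLIP share by construction. Without the 75 positions from 1269 to 1343, the head took 22.71% and 22.72% of the remaining 18S depth in eCLIP replicates 1 and 2, against 24.3% in Input. The log2 ratio of these shares was -0.099 in both replicates, while no peak outside the head was left out. With the median depth of the head over that of the rest of 18S, the log2 ratio stayed above 0, at 0.077 and 0.26. On the 5S scale the head without that stretch had a log2 ratio of -2.94 ± 0.235 (SD, n = 2), against -2.15 with it.

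**Figure D3:**
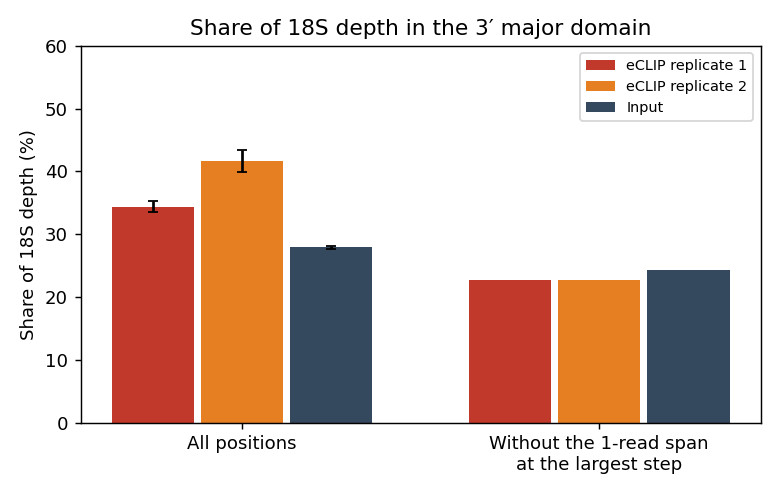
Share of 18S depth that lay in the 3′ major domain in each library, over all positions (left) and without the 75 positions from 1269 to 1343 (right). Bars start at 0, and whiskers on the left are exact 95% binomial intervals. The eCLIP bars stand above Input on the left, at 34.4% and 41.7% against 27.9%, and just below it on the right.

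In edgeR's fit with the rest of 18S as scale, 2 of the 9 head windows were higher in eCLIP, 1251 to 1300 and 1301 to 1350. Their log2 fold changes were 1.96 ± 0.475 and 2.21 ± 0.464 (SE, adjusted p = 0.0242 and 0.0178). On this scale 66% of all windows were higher, since 90 of the 102 windows of 28S were. Of the 29 other windows of 18S, 2 were higher and 8 lower. Among those 8 was 1651 to 1700, which lies partly in the head, at -1.40 (edgeR adjusted p = 0.0196). No head window was lower by edgeR, with 1 at an unadjusted p under 0.05, while 6.8% of all windows were. DESeq2 called 4 head windows lower and 3 higher, against 16.3% and 74.1% of all windows. The hill window 1551 to 1600 was at 0.67 on this log2 scale, short of edgeR's threshold (adjusted p = 0.0748), while DESeq2 gave an adjusted p of 0.000476. Windows 1351 to 1400, 1401 to 1450, 1451 to 1500 and 1601 to 1650, with values from -0.57 to -0.87, were those that DESeq2 called lower.

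A single-base step bounded the stretch from 1269 to 1343 at either end. Between positions 1268 and 1269, depth stepped up by 905 reads in eCLIP replicate 1, which had 534 reads before the step. It stepped up by 519 reads in replicate 2, which had 191, and by 260 reads in Input, which had 6270. The depth after the step was 2.69 and 3.72 times that before it in eCLIP, against 1.04 times in Input. In units of mean 5S depth the step was 4.29 and 7.75 in eCLIP, against 0.49 in Input. It was 15.3 and 17.3 times the next largest rise of the head in eCLIP, whereas in Input 6 rises were larger. The step equalled 24.5% (exact 95% interval 23.1% to 25.9%) and 40.8% (38.1% to 43.6%) of all head reads in eCLIP, against 0.601% (0.531% to 0.679%) in Input. These intervals treat each read as separate and cover counting error only. They do not allow for the position having been picked as the largest rise.

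Depth stepped down again between 1343 and 1344, by 902 and 522 reads in eCLIP replicates 1 and 2, against 123 in Input. The 2 edges are 75 nt apart, the span of a read. With all reads taken as 75 nt long, the fall follows from the rise and is not a separate observation. Between them, eCLIP depth varied only from 1439 to 1843 reads in replicate 1 and from 657 to 818 in replicate 2. With the height of the step taken away, the 75 positions kept a mean depth of 3.42 and 3.44 times that of 5S in eCLIP, against 13.4 times in Input. Their log2 ratio was then -1.97 and -1.96 in replicates 1 and 2. Reads that share both ends can be separate molecules or copies of 1 molecule. The table gives depths only, so this was not tested, and the strand and the end at which reverse transcription stopped are not part of it.

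**Figure D4:**
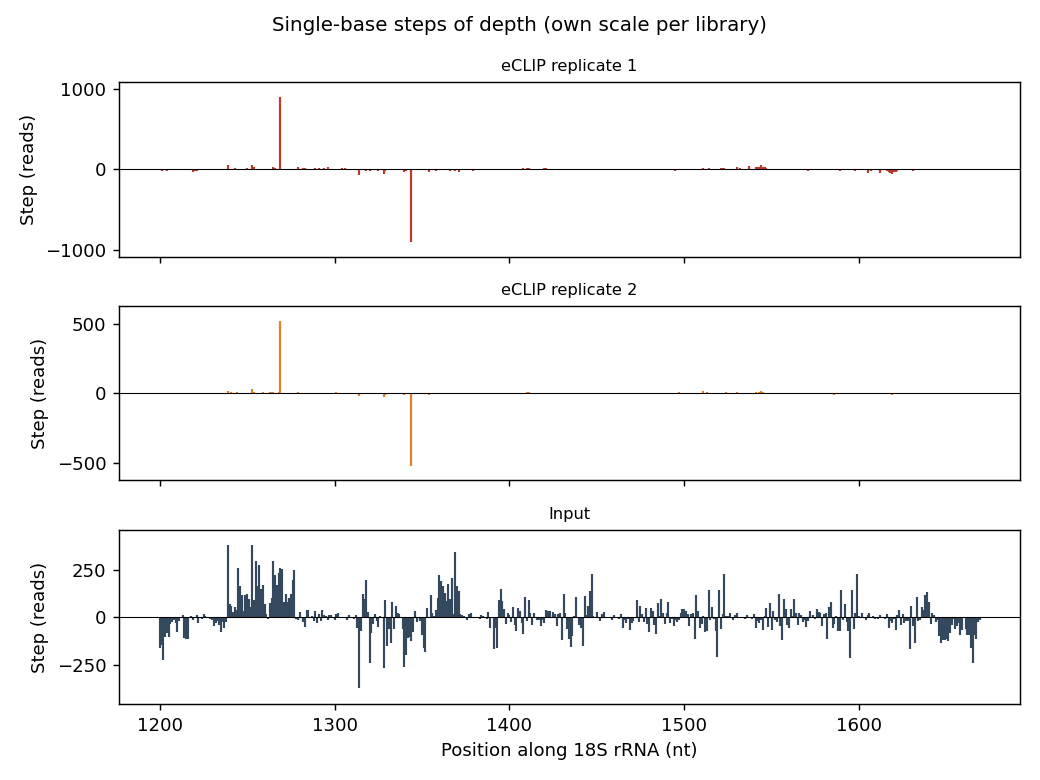
Change of depth from each position to the next along the 18S 3′ major domain, in reads, with its own vertical scale for each library. In both eCLIP libraries the step up at 1269 and the step down at 1344 dwarf all others, while Input has many steps of like size, the largest rise being 381 reads at 1239.

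The span of 75 nt did not rest on that block. Rises of eCLIP depth within the head were matched by falls at all distances from 20 to 200 nt, and 75 nt gave the highest correlation in both replicates. With the rise at 1269 and its fall left out, the correlation across head positions at 75 nt was 0.944 in replicate 1 and 0.933 in replicate 2, against 0.636 in Input. Of the 10 largest rises of each library, 9 in replicate 1, 9 in replicate 2 and 5 in Input had 1 of the 10 largest falls 75 nt later.

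Among the 10 largest rises of each eCLIP library, 6 were at the same base in both, which is 60% of each list. They were 1239, 1253, 1265, 1269, 1543 and 1544. Ties for the 10th place went to the lower position: in replicate 2 the rise at 1545 equalled that at 1543, at 8 reads. Of these, 1239, 1253, 1265 and 1269 were also among the 10 largest of Input. At 1239 depth stepped up by 59 and 19 reads in eCLIP replicates 1 and 2, against 381 in Input. In units of mean 5S depth that was 0.28 in each eCLIP library, against 0.72 in Input, where it was the largest rise of the head. At 1253 the step was 52 and 30 reads in eCLIP, against 380 in Input, or 0.25 and 0.45 times the mean 5S depth against 0.71 times. At 1265 it was 30 and 12 reads in eCLIP, against 295 in Input. Relative to 5S, these 3 rises were smaller in eCLIP than in Input, and the rise at 1269 was larger. Relative to the depth just before the step, the order of these 3 turned. The rise at 1239 was 30.1% and 79.2% of that depth in eCLIP, against 19.1% in Input. At 1253 it was 16.6% and 35.3% in eCLIP, against 10.6% in Input, and at 1265 it was 6.34% and 7.36% in eCLIP, against 5.51% in Input. These percentages rest on few eCLIP reads, and no interval was computed for them. In replicate 2 the rise was 19 reads on 24 at 1239 and 12 reads on 163 at 1265. Of the falls, 5 were among the 10 largest in both eCLIP libraries, 1314, 1328, 1340, 1344 and 1619. Each lay 75 nt after one of the shared rises. Here too the 10th place was tied, between 1340 and 1354 in replicate 1, and between 1570 and 1588, which were kept, and 1618 and 1620, which were not, in replicate 2.

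The rises at 1543 and 1544 belonged to the hill and were not seen in Input, which had 7829 and 7816 reads there, on its plateau, where a rise might not show. At 1544 depth stepped up by 58 and 13 reads in eCLIP replicates 1 and 2, whereas Input stepped down by 13 reads, from 7829. The hill itself was built from many small steps. In replicate 1 depth climbed by 717 reads over 170 nt, from a trough of 191 reads at 1389 to 908 reads at 1559. In replicate 2 it climbed by 195 reads over 163 nt, from 47 reads at 1387 to the top at 1550. The largest single step made up 8.09% and 7.18% of the climb. The top of the hill stood at 4.31 and 3.62 times the mean 5S depth in eCLIP, and the trough before it at 0.91 and 0.70 times. The 5S-scaled log2 ratio to Input was -1.77 and -2.01 at the top, and -4.01 and -4.38 in the trough. Input had 7800 and 7759 reads at these 2 tops.

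A set of known modified bases of the head, which may not be complete, was then read out. It held 19 positions in the literature's numbering of human 18S, and the base at each was not checked against a sequence here. They comprise 7 pseudouridines, 9 bases methylated on the ribose and 3 with other base modifications. The P-site loop base, 1248, carries m1acp3Ψ, a hypermodified pseudouridine made with EMG1 and TSR3, which stops reverse transcriptase in primer extension. It was covered by 283 and 73 reads in eCLIP replicates 1 and 2, against 3189 in Input. Its log2 ratio was -2.16 and -2.46. Just after it, at 1249, depth stepped up by 6 and 5 reads in eCLIP, against 117 in Input, and in none of the libraries was this among the 10 largest rises. With 25 nt either side, which takes in the first 5 positions of the block, the log2 ratio of mean depth was -1.76 ± 0.044 (SD, n = 2) on the 5S scale. Scaled to the rest of 18S, this ratio was 1.05 ± 0.28 (SD, n = 2). Window 1201 to 1250, which holds the base but none of the block, had a log2 fold change of 0.52 on that scale (edgeR adjusted p = 0.346).

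The 2 pseudouridines 5′ of the P-site loop base preceded rises of Input depth. Position 1238 had 196 and 24 reads in eCLIP, against 1992 in Input, and is the base just before the largest Input rise. Position 1244 had 267 and 58 reads in eCLIP, against 2618 in Input, and the Input rise after it, of 259 reads, was the 8th largest. Between 1238 and 1268 depth grew 2.72-fold and 7.96-fold in the eCLIP replicates, and 3.15-fold in Input. Whether a modification plays a part in these steps was not tested.

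The cytidine acetylated by NAT10 at 1337 lies inside the block. It was covered by 1518 and 696 reads in eCLIP, against 6892 in Input, and its log2 ratio was -0.85 and -0.32. In all, 5 of the 19 modified bases lie between 1269 and 1343, namely 1272, 1288, 1326, 1328 and 1337, and the first 4 of these are methylated on the ribose. Their log2 ratios lay between -0.94 and -0.81 in replicate 1 and between -0.37 and -0.29 in replicate 2, the highest of the 19.

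The guanosine methylated by BUD23 at 1639 stood at the other end of the range. It was covered by 117 and 32 reads in eCLIP, or 0.56 and 0.48 times the mean 5S depth, against 7832 reads or 14.7 times in Input. Its log2 ratio was -4.73 and -4.94. Only 5.32% and 8.09% of head positions were shallower in eCLIP. The pseudouridine at 1643 had near-equal ratios of -4.68 and -4.96, and these 2 bases had the lowest ratios of the 19 in both replicates.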

How the data were processed

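The authors deposited counts per position for 4 rRNAs in 3 libraries. The file headers call the values counts and name no scaling. STAR and hg19 are listed by the submitters' processing notes with no version. How depth was counted, whether duplicate reads were removed and whether depth was capped is not stated there. Columns IP1 and IP2 were matched by number to eCLIP replicates 1 and 2. All 5 RefSeq 18S genes have the 18S length used here, so length does not tell which copy the positions refer to.

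The region, windows and landmarks were chosen with earlier results of these data known. Named were every 50-nt window wholly inside the region, the 10 largest single-base rises and falls of each library (where shared by both eCLIP libraries, and the largest of Input), the extremes of depth and 19 modified bases. The hill and trough were chosen after their values were seen. Depth ratios used no pseudocount.

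Depth was summed in windows, in which a read is counted at up to 50 positions, and tested with edgeR 4.0.16 (R 4.3.3; glmQLFit, filterByExpr, library size set to the total of 5S or of the rest of 18S, Benjamini-Hochberg at 0.05). Log2 fold changes have SEs derived from the quasi-likelihood F statistic. Alternatives were TMM, library totals, 28S totals, DESeq2 1.42.0, other windows and flanks, medians, only the central positions of 5S, and each eCLIP replicate left out. Windows of 1 read span, the step taken away, and splits by Input depth were added after seeing the data. Counting reads from recovered read starts was not run, since recovery gave negative reads at 16.6% and 19.2% of 18S positions in eCLIP and 8.13% in Input.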

Additional observations from a re-analysis of the deposited data

How the results depend on the processing

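The number of head windows lower on the 5S scale, 7 of 9, was 6 with the middle position, which lost 1201 to 1250, and 7 to 9 with no filter, DESeq2, TMM, library totals, DESeq2's size factors or the step at 1269 taken away. Cut into 25 nt it was 15 of 18, into 100 nt 3 of 4, and into windows of 1 read span 5 of 6, where fewer or more windows exist. Of all windows, 28.6% to 44.2% were lower under the settings with 9 head windows. With 25 nt, 100 nt and 1 read span, 37.9%, 32.4% and 34.7% of all windows were lower. No head window was higher on the 5S scale under these settings, against 0.68% to 29.3% of all windows. Scaled to the rest of 18S, lower windows (0 of 9) numbered 2 of 18 when cut into 25 nt, 1 by the middle position, 4 with DESeq2 and 1 of 6 with windows of 1 read span. Of all windows, 11%, 12.2%, 16.3% and 12.2% were lower under these settings. Higher windows (2 of 9) numbered 5 of 18 with 25 nt, 1 of 6 with windows of 1 read span and 1 with the step taken away. Of all windows, 70.7%, 67.3% and 66.7% were higher under these settings. The log2 ratio of head depth, -2.15, was -1.92 with TMM, -2.36 with library totals, -2.77 with the 28S total, -1.99 more than 1 read span from the ends, -3.22 with medians and -2.32 where Input was under 4000. That of the head's share of 18S, 0.44, was 0.17 with medians and turned to -0.099 without 1269 to 1343, which by construction removes the step. The ratio around the P-site loop base, -1.76, was -2.24 with 10 nt either side, -1.21 with 50 nt, which reaches into the block, -2.31 at the base alone and -1.53 with TMM. It turned to 1.05 when scaled to the rest of 18S, whose mean depth was 1.79 and 1.42 times that of 5S in eCLIP, against 11.2 times in Input. With 1 eCLIP replicate left out, these ratios were only the other's value: -2.21 to -2.10 for head depth, 0.30 to 0.58 for the share, -1.79 to -1.73 around the loop base and -3.11 to -2.78 for the head without the block. Window counts could not be recomputed then, as no residual degrees of freedom remain. For the other moved values the cause was not tested. No paired analysis was possible because only 1 Input, without a number, stood against both eCLIP libraries. Depth limits eCLIP replicate 2, with 108 reads on 5S and 18 at the shallowest head position.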
